A study of Mus musculus with 6 samples.

Results

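The baseline examined here is the control state of primary mouse cortical neurons in culture, as the 3 libraries of the shControl group hold it. They were chosen by their label, with earlier results of these data known, and are 3 of the 6 samples of the series. Neurons came from wild-type CD1 mouse cortices taken at embryonic day 15 or shortly before, and were grown in Neurobasal medium with the B27 and N2 supplements. The mitotic inhibitor cytosine arabinoside (Ara-C), which kills dividing cells, was added at 2 uM. A lentivirus carrying the control short hairpin RNA was given on day 6 and RNA was taken on day 11. Every library here thus comes from a culture that had been given both the virus and Ara-C. The other 3 samples, of the shOpa1 group, entered no value below, and no comparison with them was made. The labels call the replicates biological. They give neither the number or sex of the embryos behind a culture nor the culture each library came from.

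Cortical cultures of this kind hold glutamatergic projection neurons, which are born in the cortex itself, and GABAergic interneurons, which migrate in from the ventral forebrain. Astrocytes and oligodendrocytes arise mainly after the neurons, from progenitors that Ara-C removes. Many neuronal proteins come in families whose members replace one another as the brain matures, such as the NMDA receptor subunits and the chloride cotransporters.

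The deposited table held 55471 genes, and 29610 had a count in at least 1 of the 3 libraries. Libraries held 24676709, 28142558 and 28253400 counts assigned to genes. Levels are given as TPM (transcripts per 1000000): the count of a gene divided by its length, scaled so that each library sums to 1000000. At these depths 1 TPM of a gene of 1 kb corresponded to between 6.76 and 7.87 counts. Where a gene had no count, its upper limit was taken as the TPM of 3 counts. In bulk RNA, fewer cells of a type and less RNA per cell cannot be told apart, which applies to every statement on cell classes below. With 3 libraries in 1 group there is no contrast to test, and a paired exact test over 3 libraries cannot go below a two-sided p of 0.25. The values are therefore means ± SD (n = 3) or library by library, in the order replicate 1, 2 and 3.

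A mean TPM of at least 1 was reached by 15756 genes, of which 12805 were protein-coding. At or above 10 TPM lay 9383 genes, at or above 100 TPM 1869, and at or above 1000 TPM 86. Those 86 genes held 28.2% of all TPM. The 100 most abundant genes of each library held 29.6% ± 2.05 of its TPM (SD, n = 3), and the 1000 most abundant held 59.1% ± 1.17.

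The mitochondrial genome supplied the most abundant messages. Its transcripts took 4.16%, 5.31% and 3.19% of the counts, with 95% Wilson intervals of 4.15 to 4.17%, 5.30 to 5.32% and 3.18 to 3.19% that cover counting error only. Because these genes are short and abundant, they took 12.7%, 16.0% and 10.3% of the TPM. mt-Co1, a catalytic subunit of cytochrome oxidase, stood first with 30859, 39909 and 23873 TPM. mt-Cytb, the cytochrome b of complex III, stood second with 26652 ± 6460 TPM, ahead of mt-Nd1, a membrane subunit of complex I, with 20492 ± 3882. For these 3 messages replicate 2 was the highest library and replicate 3 the lowest.

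The other mitochondrial messages split into a high and a low group. mt-Nd2, mt-Nd6, mt-Nd5 and mt-Nd4, further complex I subunits, lay between 8065 and 12428 TPM, and the ribosomal RNAs mt-Rnr1 and mt-Rnr2 at 4068 and 3589 TPM. With no strand option recorded for the counting, reads of the opposite strand can count toward a gene. Their part in the mt-Nd6 value was not tested. mt-Co2 was listed at only 124 ± 15.1 TPM, mt-Co3 at 41.5 ± 7.05 and mt-Atp6 at 39.6 ± 4.88. mt-Nd4l, mt-Atp8 and mt-Nd3 lay at 23.5, 10.7 and 7.21 TPM. mt-Co2 and mt-Co3 are subunits of the same enzyme as mt-Co1. Mitochondrial genes have near-identical copies in the nuclear genome, and the counting command recorded in the file gives no option for reads that map to several places, so these low values are uncertain. The part of such copies in them was not tested.

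**Figure D1:**
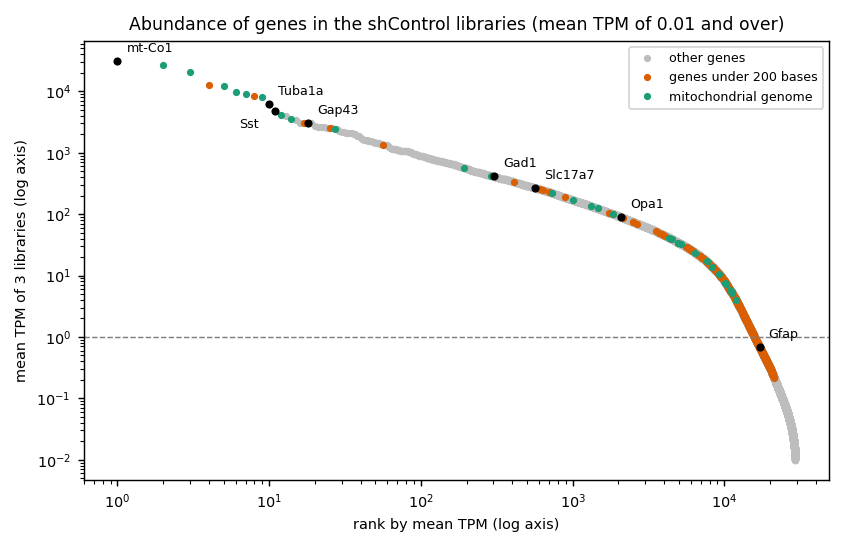
Mean TPM of the 3 shControl libraries against rank, both on log axes, for genes with a mean TPM of 0.01 and over. Green points are mitochondrial-genome genes, orange points genes under 200 bases, grey points all others, and the dashed line is 1 TPM. mt-Co1 leads at 31547 TPM, Tuba1a and Sst lead the protein-coding nuclear genes, and Gfap lies below the line.

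Among protein-coding nuclear genes, an alpha-tubulin and a neuropeptide were the most abundant. Tuba1a, the alpha-tubulin of postmitotic neurons, had 6591, 5839 and 6234 TPM and rank 10 of all genes. Of its annotated exon bases, 26.2% overlap another gene. Sst, the neuropeptide somatostatin, followed at rank 11 with 5201, 5356 and 3529 TPM. Replicate 3 was the lowest for Sst and replicates 1 and 2 lay close together. Eef1a1, which delivers aminoacyl-tRNA to the ribosome, had 3934 ± 199 TPM, and Nnat, an imprinted proteolipid of the developing brain, 3360 ± 809. Stmn3, a regulator of microtubule stability, had 3083 ± 122 TPM. Gap43, a growth-cone phosphoprotein, and Tubb3, the neuronal beta-tubulin, were level at 3018 ± 329 and 3010 ± 248 TPM.

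The rest of the 25 most abundant named nuclear genes lay between 1872 TPM (Uchl1, a neuronal deubiquitinase) and 8266 TPM (Mir6236). They include the actin-binding peptides Tmsb4x (2744 TPM) and Tmsb10 (2102), the ribosomal protein Rplp1 (2660), the calmodulin genes Calm3 and Calm2 (2628 and 2084), Selenow (2566), the lysosomal precursor Psap (2215) and the chaperone Hsp90ab1 (2295). Elongation factor Eef2 varied least of the 25, with 2083 ± 31.2 TPM. Bc1, a short noncoding RNA of dendrites, varied most, with 1909, 1493 and 4266 TPM. Replicate 3 alone was high for Bc1.

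Some of the highest levels belong to very short genes, for which TPM is least secure. Mir6236 spans 123 bases and Gm23935, a gene of 57 bases annotated as a miRNA, reached 12490 ± 1525 TPM. Gm23935 falls outside the naming rule and was chosen after its values were seen. Genes under 200 bases held 3.98%, 3.29% and 3.79% of the TPM. The pseudogene Atp6v0c-ps2, also chosen after its values were seen, stood at 2603 ± 116 TPM.

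The label of the samples was then checked against marker lists of 16 cell classes. All 18 pan-neuronal markers were above 10 TPM, with a median of 322 TPM and Gap43 highest at 3018 TPM. Map2, the dendritic microtubule protein, had 401, 412 and 489 TPM. Syp, a synaptic vesicle membrane protein, had 427, 418 and 583 TPM. Rbfox3, which encodes the nuclear antigen NeuN, was lower at 55.3, 53.4 and 84.2 TPM. Dcx, a microtubule protein of young migrating neurons, was still at 184 TPM. The neuronal identity of the label therefore stands in every library.

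Astrocyte markers were present at low levels. Of 15 markers, 12 reached 1 TPM and 5 reached 10 TPM, with a median of 5.64 TPM. The 3 highest were Apoe, a lipid carrier, with 52.4, 67.5 and 123 TPM, Glul, glutamine synthetase, with 64.8, 59.6 and 95.6 TPM, and Slc1a2, the glutamate transporter GLT-1, with 56.5, 60.9 and 81.5 TPM. Replicate 3 was the highest for all 3. The 3 members of the list under 1 TPM were Gfap, Aqp4 and Gjb6. Gfap, the astrocytic intermediate filament, had 0.685 ± 0.0502 TPM, Aqp4, the water channel of astrocyte endfeet, 0.948 TPM, and Gjb6, connexin 30, 0.0861 TPM. The median log2 TPM of the pan-neuronal list exceeded that of the astrocyte list by 6.16 on the log2 scale. The summed TPM of the astrocyte list was 1.65%, 1.97% and 2.99% of that of the pan-neuronal list. The sum was largest in replicate 3, at 418 TPM against 217 and 240.

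Progenitor markers were all measured, at mixed levels. All 12 of the list reached 1 TPM, 7 reached 10 TPM and 1 reached 100 TPM, with a median of 12.9 TPM. Fabp7, a fatty acid binding protein of radial glia, had 110, 142 and 331 TPM. Sox2, a factor of neural stem cells that some neurons also express, was even at 42.1, 37.5 and 44.5 TPM, and Vim, an intermediate filament of immature cells, had 25.4, 31.9 and 53.7 TPM. Hes1, a target of Notch signalling, stood at 2.01 TPM and Neurog2, a proneural factor, at 1.03 TPM. Of 14 proliferation genes, 7 were under 1 TPM. Mki67, the Ki-67 antigen of cycling cells, had 0.0735, 0.126 and 1.07 TPM, and Top2a, the topoisomerase of dividing cells, 0.164, 0.0423 and 1.47 TPM. Both were highest in replicate 3. Pcna, which also serves DNA repair, was the only member above 10 TPM, at 33.3 TPM.

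Most markers of other glia were low, with single members that stood higher. Of the 8 oligodendrocyte precursor markers, Tnr, the matrix protein tenascin-R that some neurons also make, was the highest with 45.4, 46.5 and 50.8 TPM. Sox10 and Gpr17 had no count in any library, which allows up to 0.145 and 0.0854 TPM. Pdgfra, the receptor that defines these precursors, stood at 0.482 TPM. Olig1 and Olig2, transcription factors of the oligodendrocyte lineage, had 1.98, 3.00 and 13.5 TPM and 0.819, 1.10 and 6.46 TPM, so replicate 3 alone was raised for both. The myelin genes Mag and Mobp were at 0.0976 and 0.0333 TPM. Mog, a myelin surface protein, stood apart from its list with 34.5, 28.2 and 32.2 TPM, while Mbp, the myelin basic protein, had 11.0 TPM and Cnp 18.4 TPM. Of 12 microglia markers, 10 were under 1 TPM. Cx3cr1, P2ry12 and Tmem119, which define the class, had 5, 1 and 1 counts in all libraries together. Aif1, the antigen IBA1, stood apart from these at 13.8 TPM.

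Markers of vessels and of the coverings of the brain were near 0. The highest of 8 endothelial markers was Kdr, a VEGF receptor, at 1.55 TPM, and Cldn5, the endothelial claudin, had 0.0316 TPM. The highest of 8 mural markers was Notch3 at 3.37 TPM, and the highest of 8 fibroblast or meningeal markers was Dcn, a matrix proteoglycan, at 1.89 TPM. Ttr, the thyroid hormone carrier that choroid plexus secretes, was an exception, with 514, 1158 and 482 TPM. Replicate 2 stood above the others for Ttr. The other 5 choroid plexus or ependymal markers lay between 0.978 and 8.45 TPM. Folr1, Clic6 and Aqp1 were also highest in replicate 2, at 4.26, 6.95 and 4.93 TPM. Hbb-y, an embryonic beta-type globin, had 5.84, 9.43 and 133 TPM, and replicate 3 stood far above the rest. Hba-a1 and Hba-x, alpha-type globins, shared that pattern with 1.64, 2.82 and 24.9 TPM and 1.10, 2.84 and 22.0 TPM.

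**Figure D2:**
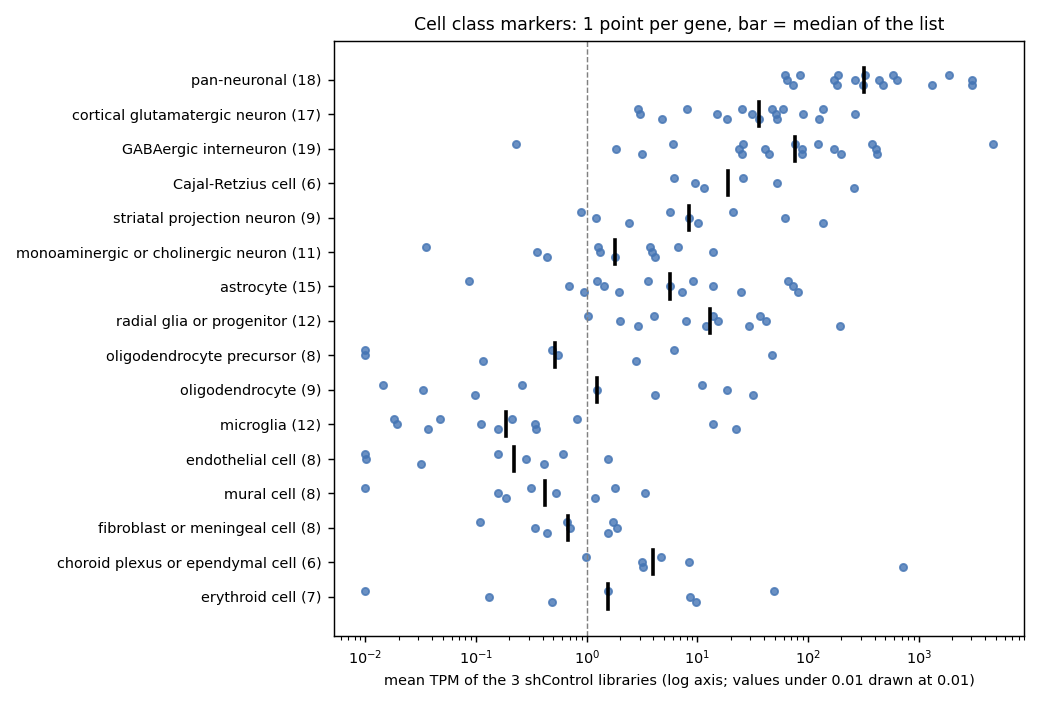
Mean TPM of the 3 shControl libraries (log axis) for each marker gene of 16 cell classes, 1 point per gene, with the number of genes in parentheses and a bar at the list median. The dashed line marks 1 TPM. The pan-neuronal median of 322 TPM lies above all others, while the microglial (0.185 TPM) and endothelial (0.218 TPM) medians lie below the line.

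Both neurotransmitter classes were strongly represented. Slc17a7, the vesicular glutamate transporter VGLUT1, had 241, 234 and 324 TPM, and Slc17a6 (VGLUT2), the form of young and subcortical neurons, 69.0, 74.1 and 126 TPM. Slc32a1, the vesicular GABA transporter, had 340, 378 and 414 TPM, with 24.9% of its exon bases shared with another gene. Gad1, the GABA-making enzyme GAD67, had 414, 409 and 408 TPM, a spread of 0.718% of its mean, and Gad2 (GAD65) had 201 ± 21.2 TPM. Transporter messages of the glutamatergic and GABAergic classes were thus of similar size. Over the whole lists, the median was 36.4 TPM for 17 cortical glutamatergic markers and 76.8 TPM for 19 interneuron markers. At or above 100 TPM lay 3 of the former and 7 of the latter. Levels of RNA do not give the number of cells in each class.

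Among interneuron subtype markers, those of the Sst and Npy classes were high and those of the Vip and Pvalb classes low. Lhx6, a factor of interneurons born in the medial ganglionic eminence, had 122 TPM, and Dlx1 and Dlx5, earlier factors of the lineage, 87.4 and 44.0 TPM. Npy, neuropeptide Y, had 616, 508 and 126 TPM, so replicate 3 was the lowest. Calb2, calretinin, ran the other way with 126, 131 and 262 TPM. Pvalb, which marks fast-spiking interneurons after birth, had 0.995, 0.366 and 4.12 TPM. Vip, vasoactive intestinal peptide, had 7, 7 and 3 counts, or 0.228 TPM. Sp8 and Prox1, factors found in interneurons of the caudal ganglionic eminence, were at 5.99 and 3.18 TPM.

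The 3 neuropeptide genes span the range from the 11th gene of the transcriptome to the edge of detection, and their proximal promoters are shown for that reason. Each sequence is the 250 bases before the RefSeq start on build GRCm38.p6, 5′ to 3′ on the gene's own strand. Capitals mark TGACG or its reverse complement CGTCA, the half-site of the cyclic AMP response element that CREB binds. The windows are chr16:23890845-23891094 (minus strand) for Sst, chr6:49822460-49822709 (plus strand) for Npy and chr10:5638968-5639217 (plus strand) for Vip.
Sst: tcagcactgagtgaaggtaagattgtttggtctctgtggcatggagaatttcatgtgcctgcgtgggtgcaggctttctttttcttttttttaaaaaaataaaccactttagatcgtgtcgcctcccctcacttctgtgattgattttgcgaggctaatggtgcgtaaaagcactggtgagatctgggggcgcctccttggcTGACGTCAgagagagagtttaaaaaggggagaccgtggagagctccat
Npy: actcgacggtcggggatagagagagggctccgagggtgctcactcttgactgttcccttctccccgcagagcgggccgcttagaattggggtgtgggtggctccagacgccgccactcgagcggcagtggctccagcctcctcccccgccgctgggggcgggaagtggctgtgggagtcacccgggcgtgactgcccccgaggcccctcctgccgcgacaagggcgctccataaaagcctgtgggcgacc
Vip: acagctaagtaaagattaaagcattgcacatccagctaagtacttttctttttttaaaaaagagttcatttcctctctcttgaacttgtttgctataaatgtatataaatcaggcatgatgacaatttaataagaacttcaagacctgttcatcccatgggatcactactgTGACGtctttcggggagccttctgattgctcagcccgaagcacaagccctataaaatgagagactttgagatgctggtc
Sst held both half-sites fused as the full palindrome TGACGTCA, with the last of its half-sites beginning 45 bases before the start. Vip held 1 half-site, beginning 79 bases before the start, and Npy held none. The counts of CG dinucleotides in the 3 windows were 8 for Sst, 21 for Npy and 3 for Vip. Of 13835 protein-coding genes with 1 RefSeq promoter, 20.4% had a half-site in this window and 2.05% the full palindrome. A match is a description of the letters and not evidence of binding.

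Across those promoters, CG content and expression level went together as a description of the classes. The median number of CG dinucleotides was 2 for the 4157 genes under 0.1 TPM, 6 for 1746 genes from 0.1 to 1 TPM, and 14 for 2371 genes from 1 to 10 TPM. It was 18 for 4455 genes from 10 to 100 TPM and 17 for 1106 genes at 100 TPM and over. A half-site was present in 7.91% of the promoters of the lowest class and in 34.1% of those of the highest. The half-site itself contains a CG. The share with a half-site was 29.7% from 10 to 100 TPM. The part of CG content in these shares was not tested. Sst, in the highest class, has fewer CG dinucleotides than the lower quartile of 12 for that class.

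Cortical layer factors were found from both deep and upper layers. Tbr1, a factor of corticothalamic and subplate neurons, had 62.9, 59.1 and 54.4 TPM. Bcl11b (CTIP2), a factor of subcerebral projection neurons that interneurons also express, had 51.9 TPM. Fezf2, which specifies subcerebral projection neurons, had 23.4, 16.7 and 5.50 TPM. Cux1 and Cux2, which mark upper layers, had 25.1 and 31.0 TPM. Neurod6, a factor of differentiating cortical glutamatergic neurons, had 54.3, 39.4 and 15.5 TPM. For Fezf2 and Neurod6 replicate 3 was the lowest library. Reln, the secreted protein of Cajal-Retzius cells and of some interneurons, had 248, 308 and 218 TPM. Trp73, more specific to Cajal-Retzius cells, had 25.9 TPM.

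The samples are labelled cortical neurons, and all 9 forebrain identity genes of the list reached a mean of 1 TPM. Nr2f1 and Nr2f2 (COUP-TFI and COUP-TFII), nuclear receptors that pattern cortex and interneurons, had 77.3 and 23.8 TPM, and Emx1, a factor of dorsal telencephalon, 18.7 TPM. Of 18 genes of midbrain, hindbrain and spinal cord, 11 had no count in any library, the 10 Hox genes of the list among them. Gbx2, also expressed in thalamus and ventral forebrain, was the only member above 1 TPM, at 5.81 TPM. En1, a midbrain and hindbrain factor, had 0, 0 and 27 counts. Slc6a3, the dopamine transporter, had 1.63, 1.65 and 8.49 TPM and Th, tyrosine hydroxylase, 4.44, 3.71 and 12.0 TPM, so replicate 3 was highest for these as well. Striatal markers were mixed. Penk, preproenkephalin, had 137 TPM, while Drd1 and Drd2, the dopamine receptors of the direct and indirect pathways, had 5.69 and 8.34 TPM.

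Xist, the RNA of the inactive X, and the Y-linked genes Ddx3y, Eif2s3y, Kdm5d and Uty were all above 1 TPM in every library. Xist had 62.5, 90.1 and 97.4 TPM and Eif2s3y, a translation factor subunit, 25.2, 17.7 and 12.1 TPM. Every library thus held RNA from both sexes. Xist was highest and Eif2s3y lowest in replicate 3.

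The families of related genes come next. In each of 82 families the most abundant member was taken as the leader, and 77 had the same leader in all 3 libraries. In 74 the lowest level of the leader was above the highest level of the runner-up. The leader's share of the family's summed TPM had a median of 62.6%. In 11 families it was at least 90% and in 25 families under 50%. With the longest annotated transcript as the length, the leader fell behind its runner-up in 8 families, Slc1a2, Stmn3 and Mfn2 among them. In CPM (counts scaled to 1000000 per library, with no division by length) it did so in 11, among them those of Gria1, Mapt and Hcn2.

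**Figure D3:**
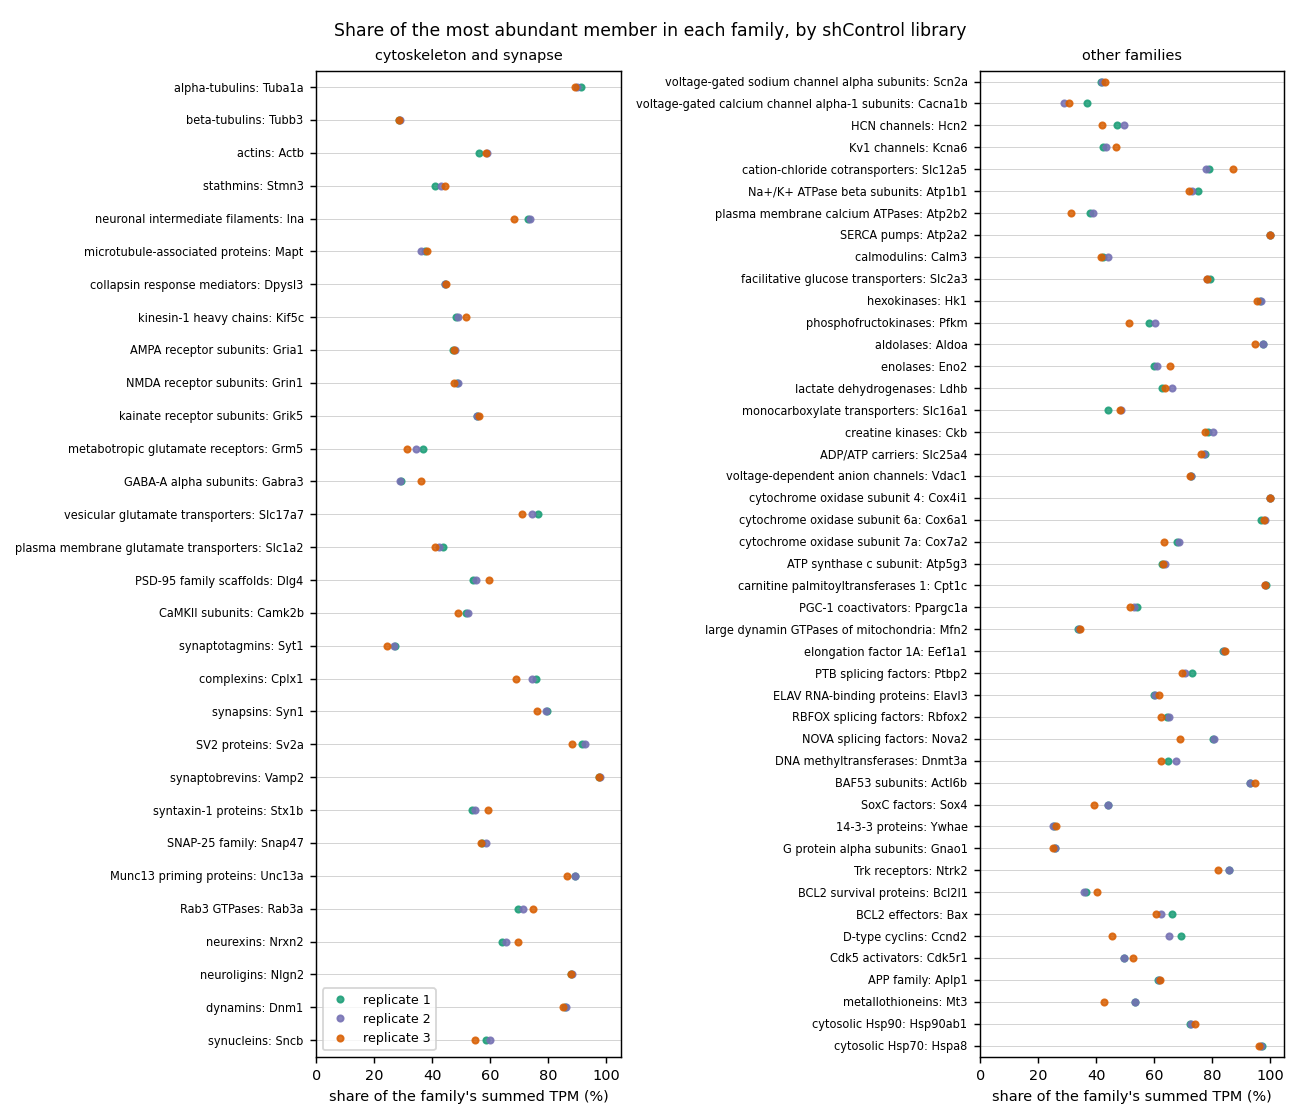
Share of each family's summed TPM (in percent) that its most abundant member held in each of the 3 shControl libraries, for 75 of the 82 families, named with their leader. Vamp2, Cox4i1, Atp2a2 and Cpt1c sit near the right edge in all libraries, and the 3 points of a family mostly lie within a few percentage points. D-type cyclins have the widest spread, with an SD of 12.7 percentage points.

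Within the cytoskeleton, Tuba1a held 90.2% ± 1.03 of the alpha-tubulin TPM, and the runner-up Tuba1b had 361 ± 38.8 TPM. These 2 genes and Tuba1c are similar in sequence, and reads shared between them make the split uncertain. Beta-tubulin was spread over more members. Tubb3 held 28.6% ± 0.268, and Tubb2b (2400 TPM), Tubb2a (2141) and Tubb5 (1985) followed. Ina, alpha-internexin, the neurofilament subunit of young neurons, held 71.6% ± 3.08 of its family with 684 TPM. Nefl, Nefm and Nefh, the light, medium and heavy neurofilament proteins, stood at 170, 72.7 and 23.5 TPM. Dpysl3, a collapsin response mediator of growing axons, held 44.5% ± 0.168, and Mapt, tau, had 1083 TPM against 697 for Map1b. Kif5c and Kif5a, neuronal kinesin-1 motors, could not be ordered: their levels were 718, 784 and 825 TPM and 726, 775 and 717 TPM.

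At the glutamatergic synapse, Gria1 led the AMPA receptor subunits in every library, with 220, 217 and 220 TPM. Gria2, the subunit that limits calcium entry, had 115, 106 and 109 TPM, and its lead by Gria1 was 0.99 ± 0.0565 on the log2 scale. Gria4 (98.1 TPM) lay close below Gria2 and above Gria3 (34.5 TPM). Among the NMDA receptor subunits Grin1, the obligatory one, had 92.5, 101 and 110 TPM. The partner subunits Grin3a (38.1 TPM), Grin2d (32.6) and Grin2b (30.8) were of similar size, and Grin2a was far lower with 4.55, 4.65 and 3.16 TPM. Grin2d and Grin3a are known from interneurons and young neurons. Grik5 led the kainate receptors at 230 TPM and Grm5 the metabotropic receptors at 63.1 TPM. Dlg4 (PSD-95) had 159 TPM and Dlg3 (SAP102), the scaffold of young synapses, 82.4 TPM.

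GABA-A receptors had no single alpha subunit. Gabra3 and Gabra2 could not be ordered, with 103, 100 and 150 TPM and 110, 114 and 113 TPM. Gabra5, a subunit of extrasynaptic receptors, had 85.4 TPM and Gabra6, a subunit of cerebellar granule cells, 0.0378 TPM. Nlgn2, the neuroligin of inhibitory synapses, held 88.1% ± 0.315 of its family with 375 TPM, ahead of Nlgn3 (38.5) and Nlgn1 (12.4).

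The release machinery was dominated by 1 member in most families. Vamp2, the vesicle SNARE, held 97.6% ± 0.138 of the synaptobrevins with 1315 TPM. Sv2a, a vesicle glycoprotein, held 90.9% ± 2.50, Unc13a (Munc13-1), a vesicle priming factor, 88.4% in the mean, and Syn1, synapsin I, 78.4% ± 1.92. Cplx1, complexin 1, had 1178, 1069 and 842 TPM and Cplx2 374 ± 7.65 TPM. Snap47 had 552, 510 and 552 TPM and thereby exceeded Snap25, the canonical plasma membrane SNARE, with 342, 299 and 350 TPM. Snap25 has the longer annotated length (6791 bases) and had 15700, 15978 and 17739 counts. In CPM the order was the other way, by 0.65 on the log2 scale. Syt1, the fast calcium sensor of release, had 636 TPM and Syt11 553 TPM.

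Ion channels and pumps were more evenly shared. Scn2a, the sodium channel of young axons, had 81.6 TPM, Scn8a 45.1, Scn3a 38.0 and Scn1a 20.1. Cacna1b, the N-type calcium channel, led with 126 TPM, and the T-type channels Cacna1h and Cacna1g, which open at low voltage, followed with 65.3 and 61.3 TPM, above the P/Q-type Cacna1a (58.4). Hcn2 (173 TPM) and Hcn3 (135) led the HCN pacemaker channels. Slc12a5 (KCC2), the chloride extruder of mature neurons, had 178, 192 and 327 TPM and held 81.4% ± 5.17 of its family. Atp2a2, the SERCA2 pump, held 99.9% ± 0.0329 of its family.

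In energy metabolism, all 17 families had the same leader in all libraries, with leader shares from 34.1% to 99.99%. The lead of Mfn2 was the narrowest, with a share of 34.1% ± 0.361 and a level 1.07-fold that of Dnm1l. The leads of Mfn2, Pfkm, Ldhb and Slc16a1 turned with the longest transcript as the length or in CPM. Slc2a3 (GLUT3), the neuronal glucose transporter, had 119 TPM and Slc2a1 (GLUT1) 7.07 TPM. Hk1, hexokinase 1, held 96.3% ± 0.687, and Aldoa, an aldolase, 96.7% ± 1.63. Aldoc, the astrocyte-enriched aldolase, had 15.7, 16.6 and 42.6 TPM. Eno2, the neuronal enolase, had 315 TPM and Eno1 166 TPM, and Ldhb exceeded Ldha at 611 against 341 TPM. Cpt1c, a neuronal member of the carnitine palmitoyltransferase family, held 98.3% ± 0.311 with 85.9 TPM, while Cpt1a, which admits fatty acids to mitochondria, had 1.16 TPM. Slc25a4 (ANT1), an ADP/ATP carrier, had 1046 TPM and Slc25a5 (ANT2) 313 TPM.

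The large GTPases that shape mitochondria were all well measured. Opa1, which fuses the inner membrane and lies at chr16:29579334-29654884 on the plus strand (GRCm38), had 90.5, 88.3 and 92.7 TPM, a CV of 2.41%. CV is the SD as a percentage of the mean. Mfn2 and Mfn1, which fuse the outer membrane, had 155 ± 7.48 and 63.9 ± 5.32 TPM, and Dnm1l (DRP1), which divides mitochondria, 145 ± 15.3 TPM. Mfn2 exceeded Dnm1l in each library, but their ranges overlapped. Opa1 lay above Mfn1 and below the other members in all libraries. Ppargc1a (PGC-1 alpha), a coactivator of mitochondrial genes, had 32.1 ± 1.44 TPM.

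Among regulators of RNA and chromatin, neuronal members led in some families and broadly expressed members in others. Elavl3 (HuC), a neuronal RNA-binding protein, had 265 TPM and Elavl1 (HuR), the general form, 23.8. Rbfox2, the broadly expressed RBFOX splicing factor, led its family at 224 TPM, above the neuronal Rbfox3 (64.3) and Rbfox1 (62.5). Dnmt3a, a de novo DNA methyltransferase, had 94.1 TPM and Dnmt3b 0.901. In survival signalling, Bax, a pore-forming death effector, had 103 TPM, Bcl2l1 (BCL-XL), a survival protein, 92.7, Mcl1 80.0 and Bcl2 6.96. Ntrk2 (TrkB), the BDNF receptor, held 84.6% ± 2.24 of the Trk receptors with 102 TPM. Bdnf itself had 10.9, 8.30 and 6.49 TPM.

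The lists also held 16 pairs of an earlier and a later form, which replace each other as neurons differentiate or the brain matures. The ratio of the later over the earlier form was taken in each library. In some pairs, such as those of Actl6b and Ptbp2, the later form marks neurons and not an age after birth. The later form was the higher one in all 3 libraries in 8 pairs, and the earlier form in the other 8. No pair changed its direction between libraries. The first count was 7 with the longest transcript as the length and 6 in CPM, where Ldhb turned and Stmn3 was below Stmn1 in replicate 1 (22647 against 25113 counts). Actl6b (BAF53b), the chromatin remodelling subunit of postmitotic neurons, exceeded Actl6a by 3.91 ± 0.286 on the log2 scale. Slc12a5 exceeded Slc12a2 (NKCC1), the chloride importer, by 3.59 ± 0.625, and Ptbp2, the neuronal splicing repressor, exceeded Ptbp1 by 1.77 ± 0.111. The ratio for Slc12a5 was 3.32, 3.16 and 4.31, highest in replicate 3. Slc17a7 over Slc17a6 stood at 1.61 ± 0.222, Syt1 over Syt4 at 1.78 ± 0.187 and Dlg4 over Dlg3 at 0.93 ± 0.183.

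The earlier form remained ahead in other pairs. Nefh lay below Ina by the widest margin, at -4.87 ± 0.141. Grin2a lay below Grin2b at -2.92 ± 0.197 and Eef1a2 below Eef1a1 at -2.43 ± 0.0370. Tubb4a stood at -1.85 ± 0.0555 against Tubb2b, Map1a at -1.18 ± 0.0887 against Map1b, and Camk2a, the CaMKII subunit that rises after birth, at -1.11 ± 0.147 against Camk2b. Scn1a against Scn3a had the least even ratios below 0, with -0.51, -0.64 and -1.64. Thus chloride transport, chromatin and vesicle sensors stood at the later form. Receptors, neurofilaments and elongation factor stood at the earlier form in the same libraries. For Stmn3 over Stmn1 (0.85 ± 0.258) the order was lost with the longest transcript as the length (-0.0042). For Ldhb over Ldha (0.84 ± 0.106) it turned in CPM (-0.23).

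**Figure D4:**
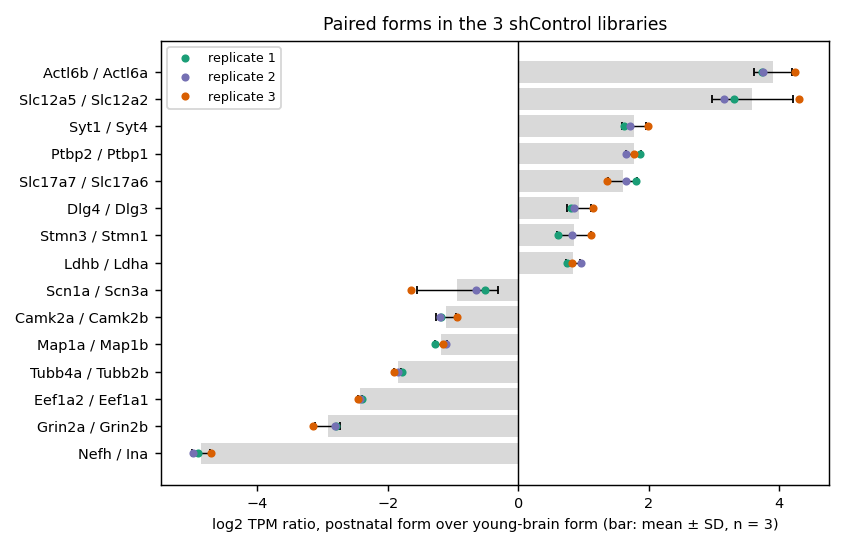
Log2 TPM ratio of the later over the earlier form for 15 of the 16 pairs. The axis calls them the postnatal and the young-brain form. Bars are means, error bars the SD (n = 3) and points the 3 shControl libraries. The 8 pairs on the right favour the later form, led by Actl6b at 3.91. The others on the left favour the earlier form, led by Nefh over Ina at -4.87.

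Imprinted genes and long noncoding RNAs supplied some of the most abundant messages. Of 24 imprinted genes, 20 reached 1 TPM. Nnat led, followed by Meg3, a maternally expressed noncoding RNA, with 976 ± 48.5 TPM and Ndn, necdin, with 697 TPM. Snrpn, a splicing protein gene with 34.1% of its exon bases in overlap, had 645 TPM, while Snurf, whose annotated exons all overlap another gene, had no count. Igf2 and H19, the best known imprinted pair, were at 0.439 and 0.713 TPM. Among long noncoding RNAs, Snhg11 (501 TPM) and Peg13 (342 TPM) followed Meg3. Malat1, an abundant nuclear RNA, had 154, 117 and 81.4 TPM, and Neat1, which builds paraspeckles, 0.551 TPM.

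All 18 immediate early genes, which are known to respond to neuronal activity, reached 1 TPM and 13 reached 10 TPM. Jund led at 145 TPM, although 52.6% of its annotated exon bases overlap another gene, and Fos and Jun, the subunits of AP-1, had 69.9 and 61.0 TPM. Npas4, an activity-specific factor of neurons, had 48.3, 41.5 and 30.2 TPM. The list did not move as one between libraries. Egr1 had 19.1, 12.6 and 71.6 TPM and Arc, a synaptic capsid-like protein, 3.15, 2.41 and 25.2 TPM, both highest in replicate 3. Nr4a3, an orphan nuclear receptor, had 71.8, 49.5 and 9.02 TPM, lowest in replicate 3. Of 12 cytokine and interferon genes, 2 reached 1 TPM, and Isg15 was the highest at 1.86 TPM. Il6, Tnf and Oas1a had no count.

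Spread between the libraries was small for most genes. Among the 9383 genes at or above 10 TPM, the median CV was 7.51% and the quartiles 4.73% and 11.9%. A CV under 10% was found for 6246 of them (66.6%) and over 50% for 119. The 10 named genes of lowest CV lay between 0.0501% and 0.220%. Prpf8, the core protein of the spliceosome, had 154, 153 and 153 TPM, and Rab3gap1, which regulates Rab3, 17.1 TPM in each library. Vps16, Coa7, Slc15a4, Tnk2, Pgbd5, Fiz1 and Rpp21 belong to the same set. With 3 libraries and so many genes, some CVs this small arise from the ranking alone, so these values describe the libraries and are not a measure of stability.

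Replicate 3 stood apart from the other libraries. More than 2-fold differences were found for 52 genes between replicates 1 and 2, for 196 between 1 and 3, and for 169 between 2 and 3. Between any 2 libraries 243 genes differed that much, and without replicate 3 the number was 49. Replicate 3 was over 2-fold above both others for 74 genes and over 2-fold below both for 57, against 9 and 14 genes for replicate 1 and 10 and 10 for replicate 2. The SD of the log2 difference was 0.23 between replicates 1 and 2, 0.37 between 1 and 3 and 0.38 between 2 and 3. The common biological coefficient of variation that edgeR estimated was 14.7% with all libraries and 7.53% without replicate 3. Chi-square per degree of freedom was 10.6 for replicates 1 and 2, which is more than counting noise alone gives.

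The named genes of highest CV were mostly those of replicate 3. Tbx21, a T-box factor known from T cells and from mitral and tufted cells of the olfactory bulb, had 3.81, 5.87 and 63.4 TPM, and Lbhd2 had 2.65, 1.71 and 46.8 TPM. Ms4a15 had 1.91, 4.58 and 29.8 TPM, and Avp, vasopressin, 8.97, 1.54 and 79.7 TPM. Nmb, neuromedin B, had 12.7, 10.4 and 52.9 TPM, and Ccnd1, cyclin D1, 6.98, 8.36 and 29.7 TPM. Cdhr1, a cadherin-related protein of photoreceptors and olfactory bulb mitral cells that was chosen after its values were seen, had 112, 163 and 465 TPM. All of these were high in replicate 3 alone. Plk5, Ppm1j and Plpp4 shared that pattern at 20.4 to 22.4 TPM in replicate 3 and under 6 TPM in the others. Hbb-y, Egr1 and Arc, given above, belong to the same set.

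Exceptions to that pattern were few. Rps3a3, annotated as a processed pseudogene of a ribosomal protein gene, had 12.8, 223 and 3.88 TPM, and the similar Rps3a2 2.05, 45.7 and 1.18 TPM. These were high in replicate 2 alone, and reads from near-identical ribosomal protein copies can be placed on either. Snord32a, of 83 bases, rested on 11, 2 and 5 counts.

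The marker lists moved with replicate 3 to different degrees. Of all nuclear genes at or above 1 TPM, 45.6% were highest in replicate 3 and 31.4% lowest. The radial glia or progenitor list had 11 of its 12 members highest there, with a median log2 ratio over the mean of the others of 0.64. The astrocyte list had 9 of 12 such members at a median of 0.69, and the imprinted list 18 of 20 at 0.41. The median of all genes was 0.04. Of the 17 cortical glutamatergic members 11 were lowest in replicate 3, with a median of -0.16, and of 18 interneuron members 12, with a median of -0.09. The pan-neuronal list differed from these, with 14 of 18 members highest in replicate 3, 1 lowest and a median of 0.15. Without the mitochondrial genes in the sum, 10 of the 18 were highest. The monoaminergic or cholinergic list had 6 of 8 members highest there (0.56), the oligodendrocyte list 4 of 5 (0.64) and the oligodendrocyte precursor list 3 of 3 (2.44). The striatal, forebrain, deep-layer, upper-layer and immediate early lists had medians from -0.13 to 0.12. The medians of the lists with a count given here kept their sign with TMM scaling, with DESeq2 size factors and with mitochondrial genes left out of the sum. Over all genes the shares highest and lowest in replicate 3 became 39.6% and 39.2% with TMM scaling and 35.9% and 42.9% without the mitochondrial genes. Tbx21, Cdhr1, the globins named above, Th, Slc6a3 and most counted members of the astrocyte and oligodendrocyte lists were highest in replicate 3. Tbx21 was named for its CV and Cdhr1 after its values were seen. Of 2 microglia members at or above 1 TPM, 0 were highest there. The part of the tissue taken, of cell composition or of neuronal activity in these differences was not tested.

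**Figure D5:**
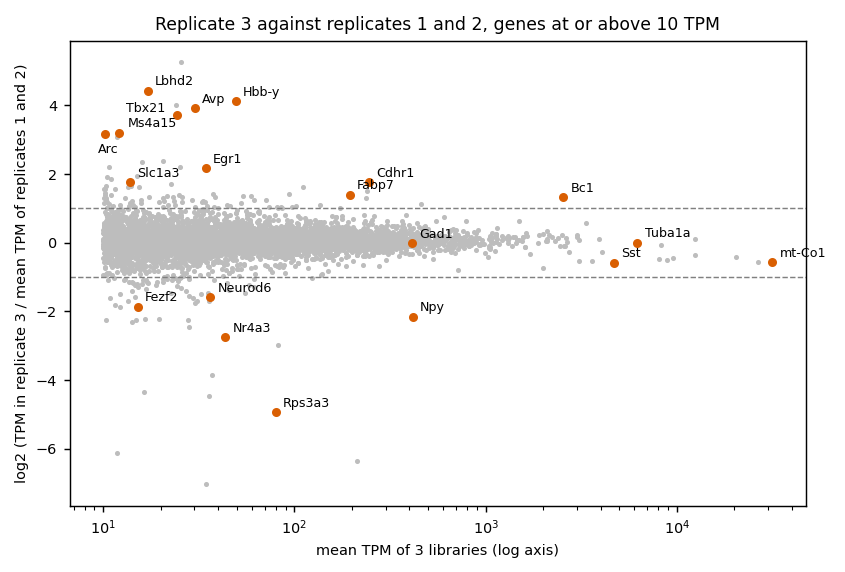
Log2 ratio of the TPM in replicate 3 to the mean of replicates 1 and 2 against mean TPM (log axis), 1 point for each of 9383 genes at or above 10 TPM. Dashed lines mark a 2-fold ratio and orange points genes named in the text. Hbb-y, Avp and Lbhd2 lie at the top, Npy and Nr4a3 below the lower line, and Gad1 and Tuba1a on the zero line.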

How the data were processed

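Bulk RNA from 3 shControl libraries (TruSeq Stranded mRNA kit, per the labels' protocols) was analysed. The deposited counts of reads per gene were made by the authors with featureCounts 1.6.0 on Ensembl release 99 annotation of GRCm38, per the file headers. HISAT2, DESeq2 and the build mm10 appear, without versions, in the submitters' processing notes. The recorded command carries no strand option, so overlapping genes of opposite strands cannot be told apart, and no option for reads that map to several places. The table holds no rows other than genes, and 0 columns without a sample. TPM was computed here from the counts and the deposited gene length (Python 3.11.15, pandas 2.3.3, numpy 2.4.6), with symbols for 55144 of 55471 genes and biotypes from GENCODE release 21 of mouse. TMM factors and dispersion came from edgeR 4.0.16 and size factors from DESeq2 1.42.0. Scripts were tested on simulated data. The lists (631 genes matched, 2 symbols without a match) and the library group were chosen with earlier results of these data known. Named genes are the 25 most abundant nuclear genes, the 3 highest members and the defining markers of each cell class, the leader and runner-up of each family, both members of each pair, the mitochondrial messages, and the 15 highest and 10 lowest CVs at or above 10 TPM. Predicted, Rik and pseudogene names were left out. Other members are named from the fixed lists. Exons that overlap another gene are given where they exceed 20% of a leading gene. Promoter sequences are those of RefSeq. The shOpa1 columns and the second deposited table were not used. Some genes that the rule names are not reported here, though counts over the lists and families include them.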

Additional observations from a re-analysis of the deposited data

How the results depend on the processing

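No paired analysis was possible because the libraries form 1 group and no test was made. Scaling by TMM or DESeq2 size factors and restriction to protein-coding genes, run for every summary but the mitochondrial share, left each within its spread or within 1.5 times its count. So did leaving out genes under 200 bases (chosen after seeing the data), run only for the genes at 1 TPM and the top 100. A factor per library cancels from the top 100 share, the marker difference, the family leaders and the pairs. TMM and DESeq2 scaling therefore could not change these. The median CV was 7.09% with TMM and 7.07% with DESeq2 size factors, and 239 genes differed over 2-fold with either. With mitochondrial genes out of the sum the 100 most abundant genes held 20.3% of TPM, and with the longest transcript as the length 26.1%. The median difference of neuronal and astrocyte markers was 6.52 with that length and 5.88 with at least 10 counts in each library. The mitochondrial share was 13.0% by TPM. Leaving out 1 library at a time gave 15778 to 15844 genes at 1 TPM, 28.6 to 30.6% for the top 100, 6.00 to 6.26 for the marker difference, 77 to 81 families with 1 leader, 8 pairs, median CVs of 4.91 to 7.50%, 49 to 205 genes over 2-fold apart and mitochondrial shares of 3.67 to 4.73%. The lowest CV and the count of 49 came without replicate 3. With the longest transcript length the leads turned for families that include those of Stmn3 (-0.0042), Kif5c (-0.025), Gabra3 (-0.24), Slc1a2 (-0.25), Atp2b2 (-0.069), Mfn2 (-0.033) and Ywhae (-0.26), in each case over the runner-up. Leaving out 1 library at a time, the lead of Kif5c ranged from -0.00051 to 0.11, that of Gabra3 from -0.14 to 0.16 and that of Cdk5r1 from -0.024 to 0.071, each lowest without replicate 3. In CPM, with no division by length, leads turned for families that include those of Mapt (-0.44), Gria1 (-0.37), Gabra3 (-0.92), Snap47 (-0.65), Hcn2 (-0.022), Pfkm (-1.29), Ldhb (-0.23), Slc16a1 (-1.10) and Ywhae (-1.01). Apart from those without replicate 3, these turns differ from the values above only in the length used. Genes at a few counts, such as Vip, are limited by depth.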
